A study of Mus musculus with 9 samples.

Results

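The genes described here are 8 transcription factor genes of the early response, Nr4a1, Nr4a2, Nr4a3, Egr1, Egr2, Egr3, Klf4 and Klf6. They were chosen by name from 22136 genes with quantified transcripts, with no threshold on measured values but with earlier results of these data known. All 8 were among the 13178 genes that passed the filter on low counts. RNA was sequenced in bulk from cells positive for CD45, the surface protein of leukocytes, that had been sorted out of melanomas. The tumours were subcutaneous allografts of YUMM 2.1, a mouse melanoma cell line, in immunocompetent C57BL/6J mice. The animals received a control IgG (the isotype control), anti-B7-H3 or anti-PD1 when the tumours measured 20 to 50 mm3, and each group has 3 libraries. B7-H3 is a surface protein of the B7 family, and PD1 is an inhibitory receptor of T cells. All groups share the strain, the tumour line and the sort. No genotype of the hosts beyond the strain, no age and no time of collection is given in the labels, and a combined treatment that the series also mentions was not analysed here. Nothing says that replicates are separate animals, so p-values measure the spread between these samples, which may be technical.

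NR4A, EGR and some KLF genes are immediate-early genes, which cells transcribe within minutes of a stimulus from factors already present. The NR4A proteins are orphan nuclear receptors that are induced by antigen receptor, cytokine and cAMP signals. In T cells they take part in tolerance and exhaustion, and Nr4a1 also directs the development of patrolling monocytes. The EGR proteins are zinc finger factors downstream of MAP kinase and calcium signals. Egr2 and Egr3 restrain T cells, and Egr1 and Egr2 take part in myeloid differentiation. Klf4 is a factor of monocyte and macrophage differentiation, and Klf6 is a factor of macrophage activation and wound response. These genes are also known to be induced while tissue is dissociated.

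The promoter windows of 5 of these genes are shown because the DNA in front of an immediate-early gene holds the sites that its inducing signals act through, and because these genes carry the values described further on. Each is the RefSeq window of the GRCm38.p6 assembly from 250 bases before to 50 bases after the annotated start, 300 bases in all, printed 5′ to 3′ on the gene's own strand. Entries for 6 of the genes were used, and that of Klf6 (chr13:5861239-5861538, plus strand) held none of the motifs marked. Egr3 had no entry and Egr1 was left out by choice, so the motif counts say nothing about Egr1 or Egr3. Capitals mark the core of the cAMP response element (CRE), TGACG, the CArG box bound by serum response factor, and TATAAA, each on either strand.
The windows lie at chr15:101266596-101266895 (Nr4a1, plus strand), chr2:57123954-57124253 (Nr4a2, minus strand), chr4:48045055-48045354 (Nr4a3, plus strand), chr10:67537619-67537918 (Egr2, plus strand) and chr4:55532426-55532725 (Klf4, minus strand).
Nr4a1: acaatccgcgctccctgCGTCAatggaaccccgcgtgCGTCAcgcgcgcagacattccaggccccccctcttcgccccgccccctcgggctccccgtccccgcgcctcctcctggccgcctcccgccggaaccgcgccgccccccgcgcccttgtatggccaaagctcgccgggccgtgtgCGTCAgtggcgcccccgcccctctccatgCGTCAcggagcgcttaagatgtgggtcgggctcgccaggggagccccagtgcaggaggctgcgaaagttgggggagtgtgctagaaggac
Nr4a2: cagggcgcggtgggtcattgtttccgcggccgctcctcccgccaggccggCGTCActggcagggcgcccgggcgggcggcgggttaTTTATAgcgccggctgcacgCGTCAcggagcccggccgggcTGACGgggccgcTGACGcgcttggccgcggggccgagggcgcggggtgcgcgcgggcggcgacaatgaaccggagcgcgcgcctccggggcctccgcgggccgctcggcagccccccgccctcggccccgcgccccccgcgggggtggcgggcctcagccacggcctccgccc
Nr4a3: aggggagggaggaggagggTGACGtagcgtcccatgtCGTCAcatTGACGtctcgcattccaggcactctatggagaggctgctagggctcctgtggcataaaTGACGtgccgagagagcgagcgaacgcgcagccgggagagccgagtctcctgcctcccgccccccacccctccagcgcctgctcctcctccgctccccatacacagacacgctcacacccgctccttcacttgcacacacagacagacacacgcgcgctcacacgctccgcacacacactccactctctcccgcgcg
Egr2: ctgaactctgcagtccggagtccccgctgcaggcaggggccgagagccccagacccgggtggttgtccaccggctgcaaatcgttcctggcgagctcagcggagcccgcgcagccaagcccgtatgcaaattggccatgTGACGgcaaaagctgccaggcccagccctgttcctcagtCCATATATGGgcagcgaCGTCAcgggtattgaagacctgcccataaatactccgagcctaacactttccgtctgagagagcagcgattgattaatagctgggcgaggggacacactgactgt
Klf4: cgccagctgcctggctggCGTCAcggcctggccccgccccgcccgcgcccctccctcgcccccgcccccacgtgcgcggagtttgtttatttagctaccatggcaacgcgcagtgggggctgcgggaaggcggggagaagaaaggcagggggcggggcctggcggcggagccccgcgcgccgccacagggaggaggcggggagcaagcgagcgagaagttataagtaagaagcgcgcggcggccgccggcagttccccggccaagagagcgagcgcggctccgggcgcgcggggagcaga

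The CRE core stood 4 times in each NR4A window, 2 times in that of Egr2, 1 time in that of Klf4 and 0 times in that of Klf6. At least 1 copy was present in 20.8% of the 32851 RefSeq windows of the same length, and at least 4 copies in 76 of them (0.231%). The cut-off of 4 is the number that the NR4A windows held, and these are themselves among the 76. The 32851 windows were not matched for their content of G and C. The Egr2 window held 1 CArG box, found in 1.63% of all windows, and the Nr4a2 window 1 TATAAA, found in 13.6%. A binding sequence of the EGR factors themselves, GCGNGGGCG on either strand, stood 1 time in the Nr4a1 window, 1 time in that of Nr4a2 and 2 times in that of Klf4, against 5.55% of all windows with at least 1. The CCACCC box of KLF factors stood 1 time each in the windows of Nr4a2, Nr4a3 and Egr2 (31.5% of all windows), and the E-box CACGTG 1 time each in those of Klf4 and Klf6 (7.15%). The complete CRE TGACGTCA (1.79%), the NR4A monomer site AAAGGTCA (1.51%), the AP-1 site TGANTCA (7.81%) and the NF-kB site (0.411%) were not in these 6 windows, which describes these letters in these windows and nothing about the factors. All motifs were searched on both strands, and the core is contained in the complete CRE. The windows were rich in G and C, from 60% in Egr2 to 81.7% in Nr4a2. The start that the Egr2 window is built on was also the annotated start of the transcript that took most of its counts, and those of Klf4 and Klf6 lay 9 and 7 bases from it. The starts used for Nr4a1, Nr4a2 and Nr4a3 lay 12577, 8965 and 3809 bases from it. Only coding sequences were quantified, so the start in use cannot be told from these files.

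The libraries held 14487012 to 31533106 estimated counts, so 3 counts amounted to between 0.0954 and 0.208 CPM, a count divided by its library's total on a scale shared by all libraries. Depth differed between groups, with 14487012 to 20477257 counts in IgG, 15091916 to 31533106 in anti-B7-H3 and 24257522 to 30119530 in anti-PD1. Every IgG library was thus shallower than every anti-PD1 library. CPM values of the genes below are scaled by TMM, which corrects library totals for a few abundant genes. IgG 2 and anti-PD1 3 stood apart from the rest, with 1896 and 1248 of the tested genes at 0 counts against 224 to 822 in the other 7 libraries. Ptprc, the gene of CD45, lay between 1718 and 2913 CPM in all 9. Markers of tumour cells were low, as the 7 melanoma markers together gave at most 14.1 CPM. Of these, the melanocyte enzyme gene Dct had 0 counts in every library. Sox10 had 19, 0 and 6 counts in the IgG libraries, 9, 110 and 121 after anti-B7-H3 and 168, 243 and 0 after anti-PD1. Of the 3 melanoma markers tested, 2 had a log2 difference from IgG above 0 with each antibody. The medians of the 3 were 2.66 and 2.94, and 0 passed the test described below.

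Nr4a1 and Klf4 rose after anti-B7-H3, and Nr4a1, Klf4, Egr2 and Klf6 rose after anti-PD1 (edgeR's quasi-likelihood test, Benjamini-Hochberg adjustment over 13178 genes, threshold 0.05). That is 2 of 8 after anti-B7-H3, where 0.85% of all tested genes passed, 0.827% higher and 0.0228% lower. After anti-PD1 it is 4 of 8, where 1.74% of all tested genes passed, 1.72% higher and 0.0152% lower. No early factor gene was called lower. Adjusted p-values below are from that test, fold changes are log2 differences with their SE, and values of groups are mean CPM ± SD with n = 3. The plot of CPM by library shows each gene's 9 values.

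**Figure D1:**
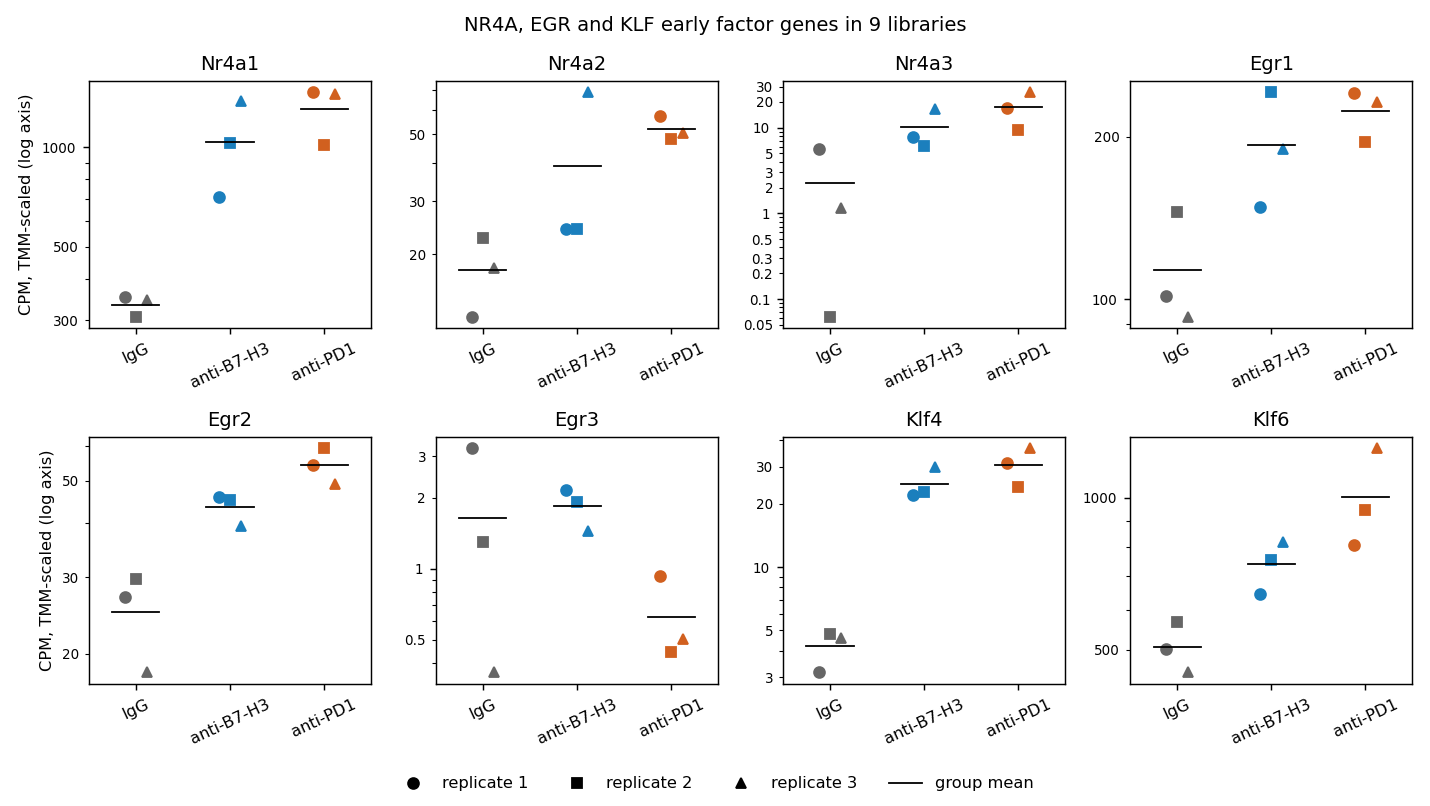
TMM-scaled CPM (vertical log axes, a different range for each gene) of the 8 genes in the 9 libraries, with a symbol for each replicate number, a colour for each group and a line at the group mean. For Nr4a1 the 3 IgG libraries sit between 307 and 352 and all 6 treated libraries between 710.1 and 1467, while Egr3 stays under 4 CPM and is lowest on average after anti-PD1.

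Nr4a1 (ENSMUSG00000023034.7, chromosome 15, 101254269 to 101274795, GRCm38), the NR4A receptor also known as Nur77, had 352, 307 and 345 CPM in the IgG libraries 1 to 3. Its values were 710.1, 1027 and 1377 CPM in the anti-B7-H3 libraries and 1467, 1013 and 1450.1 CPM in the anti-PD1 libraries. All 6 treated libraries lay above all 3 controls, which were within 1.15-fold of each other, whereas the anti-B7-H3 libraries spanned 1.94-fold. The mean went from 335 ± 24.0 CPM to 1038 ± 334 after anti-B7-H3, 3.10-fold, and to 1310.2 ± 257 after anti-PD1, 3.91-fold. On the log2 scale Nr4a1 rose by 1.63 ± 0.26 after anti-B7-H3 (95% interval 1.06 to 2.20, edgeR adjusted p = 0.015) and by 1.97 ± 0.26 after anti-PD1 (1.39 to 2.54, edgeR adjusted p = 0.00382). The anti-B7-H3 call was lost without anti-B7-H3 2 or 3 (edgeR adjusted p = 0.0557 and 0.0561) and without IgG 2 and anti-PD1 3 together (edgeR adjusted p = 0.0663). It was also lost in a fit of only the anti-B7-H3 and IgG libraries (edgeR adjusted p = 0.0643). The anti-PD1 call was kept with each library left out in turn.

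Nr4a2 (chromosome 2, 57106830 to 57124003), the receptor Nurr1 that is also needed for dopamine neurons, was lower and more variable. The IgG libraries had 12.4, 22.7 and 18.0 CPM, the anti-B7-H3 libraries 24.2, 24.1 and 68.8, and the anti-PD1 libraries 57.6, 48.3 and 50.5. Anti-B7-H3 1 and 2 lay just above the highest control and anti-B7-H3 3 far above it, while the 3 anti-PD1 libraries were close together. The differences of 1.15 ± 0.41 after anti-B7-H3 (0.23 to 2.06) and 1.56 ± 0.42 after anti-PD1 (0.64 to 2.48) were not called (edgeR adjusted p = 0.424 and 0.113). Without anti-B7-H3 3 the first was 0.45, and without that same library the anti-PD1 difference passed (edgeR adjusted p = 0.0318).

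Nr4a3 (chromosome 4, 48045153 to 48086447), the receptor NOR-1, was the scarcest of its family. It had 113, 1 and 22 counts in the IgG libraries, or 5.66, 0.0619 and 1.14 CPM. With anti-B7-H3 the libraries had 7.79, 6.13 and 16.7 CPM, and after anti-PD1 17.1, 9.50 and 25.9. All treated libraries were above the controls, although IgG 1 came close to anti-B7-H3 2, and IgG 2, one of the libraries that stood apart, was nearly without reads of the gene. The log2 differences were 2.15 ± 1.03 after anti-B7-H3 (-0.15 to 4.44) and 2.92 ± 1.06 after anti-PD1 (0.56 to 5.28), neither past the test (edgeR adjusted p = 0.604 and 0.322). They ranged with the control library left out, from 1.60 without IgG 2 to 4.08 without IgG 1 for anti-B7-H3, and from 2.38 to 4.86 for anti-PD1.

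Nr4a1 supplied 92.1% to 97.2% of the summed NR4A TPM (a level that takes coding length and library total into account) in every library. Nr4a2 supplied 3.42% to 7.84% in the IgG libraries, 2.32% to 4.79% after anti-B7-H3 and 3.38% to 4.57% after anti-PD1, ranges that overlap. Shares of this kind do not depend on how libraries are scaled against each other.

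Egr1 (chromosome 18, 34859823 to 34864984), the best known immediate-early zinc finger gene, had 101, 145 and 92.8 CPM in the IgG libraries. With anti-B7-H3 the values were 148, 242 and 189.6 CPM, and after anti-PD1 242, 196 and 232. Anti-B7-H3 1 exceeded IgG 2 by only a few CPM, and the anti-PD1 libraries lay well above the controls. Neither difference passed the test, at 0.77 ± 0.24 (0.25 to 1.29, edgeR adjusted p = 0.289) and 0.98 ± 0.24 (0.46 to 1.50, edgeR adjusted p = 0.0738). Without IgG 2 the anti-PD1 difference was past the threshold (edgeR adjusted p = 0.0301), as it was with DESeq2 (adjusted p = 0.0045) or without the filter on low counts (edgeR adjusted p = 0.0423).

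Egr2 (chromosome 10, 67535475 to 67542188), known in nerve myelination and in T cell anergy, had 27.0, 29.6 and 18.1 CPM in the IgG libraries. The anti-B7-H3 libraries had 46.0, 45.1 and 39.3 CPM and the anti-PD1 libraries 54.3, 59.6 and 49.1. The 3 groups were separate, the anti-PD1 libraries above the anti-B7-H3 libraries and both above the controls, on this scale and on unscaled CPM. On TPM the anti-B7-H3 libraries overlapped both other groups. Egr2 rose after anti-PD1 by 1.12 ± 0.24 (0.59 to 1.66, edgeR adjusted p = 0.0448), and the anti-B7-H3 difference of 0.80 ± 0.24 (0.27 to 1.34) was short of the threshold (edgeR adjusted p = 0.278). The anti-PD1 call sat at the threshold, since it was kept without IgG 2 alone and lost without any other library (edgeR adjusted p = 0.0652 to 0.193).

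Egr3 (chromosome 14, 70077203 to 70082614), the partner of Egr2 in T cell tolerance, had the lowest mean TPM of the 8, and on TMM-scaled CPM it was the only one whose treated libraries overlapped the controls. Its IgG libraries had 65, 21 and 7 counts, or 3.26, 1.30 and 0.363 CPM. The values were 2.15, 1.92 and 1.45 CPM after anti-B7-H3 and 0.927, 0.444 and 0.501 after anti-PD1, the last from 27, 12 and 12 counts. IgG 1 was the highest and IgG 3 the lowest of all 9 libraries, so the controls enclosed both treated groups. The differences from IgG were 0.16 ± 1.16 after anti-B7-H3 (-2.39 to 2.72) and -1.39 ± 1.18 after anti-PD1 (-3.99 to 1.22), and neither passed the test (edgeR adjusted p = 0.991 and 0.755). Without IgG 3 the sign of the first turned (-0.31), and without IgG 1 the second was -0.38.

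Among the EGR genes, Egr1 supplied 67.7% to 81.2% of their summed TPM and Egr2 18.3% to 30.1%. Egr3 supplied 0.523% to 3.19% in the IgG libraries, 0.829% to 1.50% after anti-B7-H3 and 0.228% to 0.431% after anti-PD1. The anti-PD1 libraries were thus below the other 6 in the share of Egr3, in counts that were few.

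Klf4 (chromosome 4, 55527143 to 55532466) showed the largest changes of the genes past the test. Its IgG libraries had 3.16, 4.83 and 4.62 CPM. The anti-B7-H3 libraries had 21.9, 22.9 and 29.8 CPM, and the anti-PD1 libraries 31.1, 24.1 and 36.9. The lowest treated library was several times above the highest control, and the treated groups overlapped each other. The mean went from 4.20 ± 0.909 CPM to 24.9 ± 4.34 after anti-B7-H3, 5.92-fold, and to 30.7 ± 6.41 after anti-PD1, 7.30-fold. Klf4 rose by 2.57 ± 0.33 (1.84 to 3.29, edgeR adjusted p = 0.0051) and by 2.87 ± 0.33 (2.13 to 3.60, edgeR adjusted p = 0.0019). Both calls were kept with each library left out in turn, with 2.41 to 2.70 for anti-B7-H3 and 2.72 to 3.02 for anti-PD1. The anti-B7-H3 call was lost with limma-voom and its sample quality weights, at a log2 difference of 2.74 (adjusted p = 0.0939).

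Klf6 (chromosome 13, 5861482 to 5870394) was the most abundant of the 8 and changed the least of those called. The IgG libraries had 501, 566 and 451 CPM, the anti-B7-H3 libraries 645, 751 and 819, and the anti-PD1 libraries 806, 944 and 1257. Each treated library lay above each control on this scale. Klf6 rose after anti-PD1 by 0.99 ± 0.21 (0.52 to 1.45, edgeR adjusted p = 0.0432), 1.98-fold in the means, and the anti-B7-H3 difference of 0.55 ± 0.21 (0.08 to 1.01) was not past the test (edgeR adjusted p = 0.462). This call too was near the threshold and was kept without anti-B7-H3 1 alone (edgeR adjusted p = 0.0492). Without any other single library it was lost (edgeR adjusted p = 0.0509 to 0.162).

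Klf4 took a larger share beside Klf6 in each treated library than in any control. Of the summed TPM of both genes, Klf4 made up 0.373% to 0.617% in the IgG libraries, 1.78% to 2.13% after anti-B7-H3 and 1.53% to 2.26% after anti-PD1. The treated ranges lay wholly above the control range, a measure that no scaling between libraries can alter. Whether more cells carried Klf4 or each cell held more of its RNA cannot be told apart in bulk RNA, and the same holds for the other genes here.

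Per coding length, the levels of the 8 genes kept 1 order at the top in all 9 libraries, with Klf6 above Nr4a1, Nr4a1 above Egr1 and Egr1 above Egr2. Their mean TPM over the 9 libraries was 505.9, 281, 63.7 and 20.5, at the 97.4th, 95.6th, 83rd and 62nd percentile of tested genes. Below them came Nr4a2 with 11.9 TPM, Klf4 with 7.93, Nr4a3 with 2.87 and Egr3 with 0.748, and these 4 changed places between libraries. The rank of Klf4 moved most, between 8 and 5.

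The counts of most of these genes came from a single transcript. Egr1 had only 1 quantified transcript, so its share of 100% was fixed in advance. For Nr4a1 and Klf4 1 transcript took 100% in each library. The only other Nr4a1 transcript has a coding length of 40 bases, and the others of Klf4 have 480 and 248 bases. For Egr2 and Klf6 1 transcript took at least 96.8% and 98.7%. Nr4a2-201 took 75.9% to 98.7%. The remainder was Nr4a2-206, annotated as subject to nonsense-mediated decay, with 24.1% in IgG 2, and Nr4a2-202, with 17.3% in anti-B7-H3 1 and no counts elsewhere. Nr4a3 was assigned to Nr4a3-203, with a coding length of 1974 bases, in 6 libraries. IgG 2 and IgG 3, with 1 and 22 counts, had all of it on Nr4a3-201, of 1884 bases, and anti-B7-H3 1 had 65.8% there. These shares are estimates of the quantification and carry no error in the files.

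**Figure D2:**
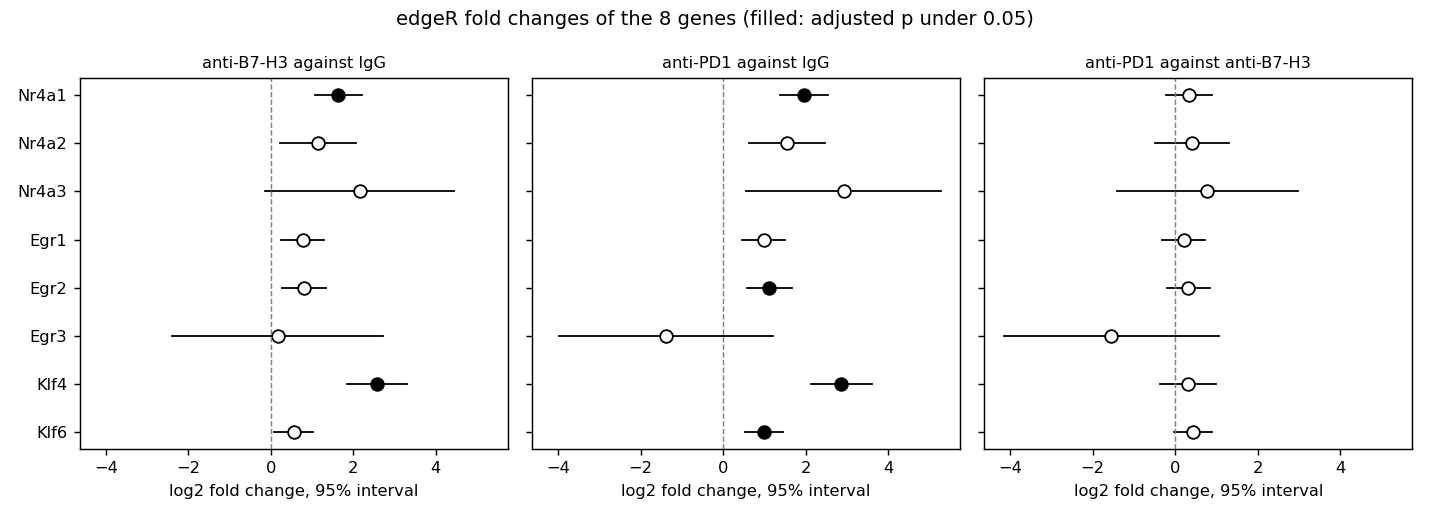
log2 fold changes of the 8 genes from edgeR (horizontal axes) with 95% intervals in 3 panels, 1 per comparison, with filled points for an adjusted p under 0.05. The intervals of Nr4a3 and Egr3 are the widest, and in the panel of anti-PD1 against anti-B7-H3 all 8 intervals include 0.

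With anti-B7-H3, 7 of the 8 genes, all but Egr3, had every treated library above every control, an order that 9.96% of all tested genes had, and 6 had an unadjusted p under 0.05 (8.81% of all tested genes). On CPM without TMM scaling it was 4 (Nr4a1, Nr4a3, Egr2 and Klf4, against 8.12% of all genes), and on TPM it was 2 (Nr4a1 and Klf4, against 6.79%). None was lower without overlap, as 5.49% of all tested genes were. All 8 had a log2 difference above 0, as 52.1% of all tested genes had. The median of the 8 was 0.98, beside 0.02 over all tested genes. The count past the test fell from 2 to 1 without anti-B7-H3 2, without anti-B7-H3 3 and without IgG 2 and anti-PD1 3 together, and Klf4 was the gene that remained.

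With anti-PD1 the same 7 genes were higher without overlap on all 3 scales, against 9.99%, 8.37% and 7.96% of all tested genes, and 7 had an unadjusted p under 0.05 (10.9% of all tested genes). None was lower without overlap, as 6.52% of all tested genes were, and 7 had a log2 difference above 0, as 47.2% of all tested genes had. The median of the 8 was 1.34, beside -0.04 over all tested genes. The 4 genes past the test became 2, Nr4a1 and Klf4, without IgG 1, IgG 3, anti-B7-H3 2, anti-PD1 1, anti-PD1 2 or anti-PD1 3, and also without both libraries that stood apart. DESeq2 called 7 of the 8, and limma-voom with quality weights 3. Both comparisons use the same 3 IgG libraries, so a low control value raises the differences of both.

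The antibodies were also compared with each other. In anti-PD1 against anti-B7-H3, 0 of 8 passed the test and 0 had an unadjusted p under 0.05 with edgeR, and 0 passed with DESeq2 or with limma-voom and quality weights. Over all 13178 genes edgeR called 0 (0%), DESeq2 15 and limma-voom with quality weights 2, and 425 genes (3.23%) had an unadjusted p under 0.05 with edgeR. The log2 difference was above 0 for 7 of the 8, all but Egr3, and for 46.2% of all tested genes. The log2 differences and their 95% intervals were 0.34 (-0.22 to 0.89) for Nr4a1, 0.30 (-0.38 to 0.98) for Klf4, 0.32 (-0.21 to 0.85) for Egr2 and 0.44 (-0.02 to 0.90) for Klf6. A difference of close to 2-fold is thus not excluded for Klf4 by these intervals. Wider intervals belonged to Nr4a2 (0.41, -0.48 to 1.31), Nr4a3 (0.78, -1.42 to 2.97) and Egr3 (-1.55, -4.16 to 1.06), and Egr1 was at 0.21 (-0.31 to 0.72). Only Egr2 was higher without overlap (6.4% of all tested genes were), and only Egr3 lower (7.13%).

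By the root mean square difference of centred log2 CPM over the 9 libraries, among 9910 genes of at least 5 CPM, the genes most like Nr4a1 were the kinase gene Pim3 (0.20) and Zfp36 (0.22), which encodes an RNA-binding protein that destabilises cytokine messages. Nr4a1's own SD on that scale was 0.94. Those most like Egr1 were the phosphatase gene Dusp1 (0.16) and the amino acid transporter gene Slc3a2 (0.20), and most like Klf6 were Ninj1 (0.12) and Rgs2 (0.15). Klf4 was closest to Spint1 and Pdgfa (both 0.34, with its own SD at 1.38), Egr2 to Dnajb9 (0.15) and Rgl1 (0.17), and Nr4a2 to Klf9 (0.30) and Dusp10 (0.33). For Nr4a3 and Egr3 the nearest genes were Ifi207 (0.56) and Acad11 (0.45), with SDs of 2.32 for Nr4a3 and 1.02 for Egr3. The difference tends to be larger for a gene with a larger SD, so these values do not rank the early factors by closeness.

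Other members of the 3 families did not pass the test. Of the 15 others listed, 11 were tested, 0 rose and 0 fell in either comparison with IgG, and their median log2 difference was 0.02 after anti-B7-H3 and 0.50 after anti-PD1. Klf2, a factor of T cell quiescence, had 925 ± 461 CPM in the IgG group, 1288 ± 281 after anti-B7-H3 and 1315 ± 243 in the anti-PD1 group (edgeR adjusted p = 0.769 and 0.636). Klf5 went from 0.0668 ± 0.116 to 0.899 ± 0.68 and 3.73 ± 1.70 CPM without passing (edgeR adjusted p = 0.537 and 0.17). The 15 upstream factors and corepressors of the EGR proteins, all tested, likewise held 0 called genes, at medians of 0.16 and 0.35. Srf, which binds the CArG box, had 25.5 ± 3.05, 37.5 ± 3.62 and 36.6 ± 4.35 CPM (edgeR adjusted p = 0.516 and 0.44). The EGR corepressor gene Nab2 had 27.1 ± 6.92, 44.5 ± 12.2 and 37.5 ± 18.2 CPM.

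Some of the other immediate-early genes passed the test as well. Of 11 AP-1 genes, 3 rose after anti-B7-H3 and 4 after anti-PD1, at medians of 0.89 and 1.08. Atf3, a stress-induced AP-1 partner, went from 12.3 ± 3.68 CPM to 108 ± 13.8 and 136 ± 12.8, and rose by 3.13 ± 0.26 and 3.46 ± 0.27 (edgeR adjusted p = 0.00104 and 0.00037). Fos rose by 1.45 ± 0.20 and 1.35 ± 0.20 (edgeR adjusted p = 0.00646 and 0.00608), and its calls and those of Atf3 were kept with each library left out in turn. Jun rose after anti-B7-H3 by 1.15 ± 0.22 (edgeR adjusted p = 0.0412), a call kept without IgG 3 alone, and Fosl2 rose after anti-PD1 by 2.56 ± 0.36 (edgeR adjusted p = 0.00537). Of 26 further immediate-early genes, 4 rose after anti-B7-H3 and 12 after anti-PD1, at medians of 0.82 and 1.19. The counts became 2 without anti-B7-H3 2 or 3, and 7 without anti-PD1 1. Ier3, Cebpb and Zfp36 led both, with rises of 2.33 ± 0.26, 2.22 ± 0.27 and 1.31 ± 0.21 after anti-B7-H3 and of 2.97 ± 0.27, 2.79 ± 0.27 and 1.68 ± 0.21 after anti-PD1 (edgeR adjusted p from 0.000465 to 0.0153). The Zfp36 call after anti-B7-H3 was lost without anti-B7-H3 2 or 3 (edgeR adjusted p up to 0.075).

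**Figure D3:**
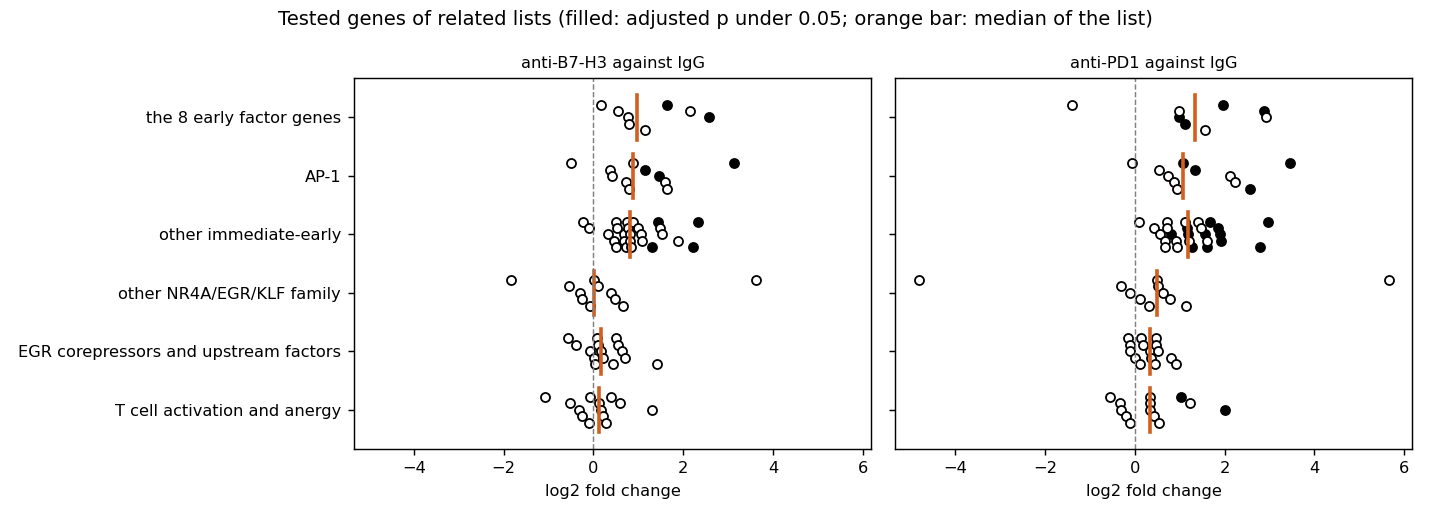
log2 fold changes of single genes (points, horizontal axes) in the early factor genes and the related gene lists for both antibodies against IgG, with filled points for an adjusted p under 0.05 and an orange bar at the median of each list. The medians of the early factor genes are 0.98 and 1.34, beside 0.89 and 1.08 in the AP-1 list and 0.16 and 0.35 in the list of upstream factors.

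Levels of several other sets of genes also differed between the IgG and the treated libraries. Of 12 monocyte and macrophage markers, 6 rose after anti-B7-H3 and 7 after anti-PD1, and their summed level was 380.5 to 627 CPM in the IgG libraries, 2213 to 2921 after anti-B7-H3 and 2074 to 2496 after anti-PD1. Of 7 neutrophil markers 6 were tested, 3 and 4 rose, and the sums were 79.4 to 105, 271 to 483 and 647 to 930 CPM. The part of these markers' cells in the values of Nr4a1, Klf4, Egr2 and Klf6 was not tested. T cell markers, at 4207 to 6318, 3414 to 4959 and 3695 to 4746 CPM, overlapped, with 0 of 10 genes called in either direction. Only 1 of these 10 had a log2 difference above 0 in each comparison with IgG, at medians of -0.34 and -0.32. Mast cell markers ranged widely within groups, from 258 CPM in anti-B7-H3 1 to 4046 in anti-B7-H3 2, and so overlapped as well.

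Genes of T cell activation and anergy, in which NR4A and EGR factors act, held 0 called genes of 13 after anti-B7-H3 and 2 after anti-PD1, at medians of 0.12 and 0.34. Irf4, which is induced by the antigen receptor, rose after anti-PD1 from 8.89 ± 4.51 to 36.0 ± 3.71 CPM (edgeR adjusted p = 0.0307), and the early activation marker gene Cd69 from 137 ± 32.4 to 278 ± 17.5 (edgeR adjusted p = 0.0429). Irf4 kept its call in 3 of 9 fits with a library left out and Cd69 in 1 of 9. The 6 heat-shock chaperones, which tissue handling also induces, summed to 13486 to 23007 CPM in the IgG libraries, 26212 to 29013 after anti-B7-H3 and 29999 to 47562 after anti-PD1. Of these, 0 were called after anti-B7-H3 and 1, Hsp90aa1, after anti-PD1 (1.32 ± 0.28, edgeR adjusted p = 0.0432), a call kept in 1 of 9 fits with a library left out. The part of handling in the early factor values was not tested.

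Markers of other cells differed in level and in spread. Fibroblast markers summed to 0.495 to 1.45 CPM in the IgG libraries, 8.42 to 14.2 after anti-B7-H3 and 13.3 to 29.7 after anti-PD1. Each treated library thus lay above each control, at low levels, with 3 of 6 markers tested and 0 called. Endothelial markers reached at most 7.42 CPM and keratinocyte markers at most 3.71 CPM. Markers of B cells reached 471 CPM in anti-B7-H3 1 and at most 137 CPM elsewhere, with 0 of 6 called. NK cell markers were at 156 to 571, 565 to 856 and 457 to 741 CPM, with 0 called. All 5 had log2 differences above 0 in both comparisons with IgG, at medians of 0.92 and 0.60. Dendritic cell markers were at 172 to 315, 300.1 to 542 and 301 to 433 CPM, also with 0 called. Of these 7 markers, 3 had log2 differences above 0 after anti-B7-H3 and 6 after anti-PD1. Much of their sum was Ccr7 alone, at 493 CPM in anti-B7-H3 1 and 272 CPM in IgG 3. The part of these cells in the early factor values was not tested.

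**Figure D4:**
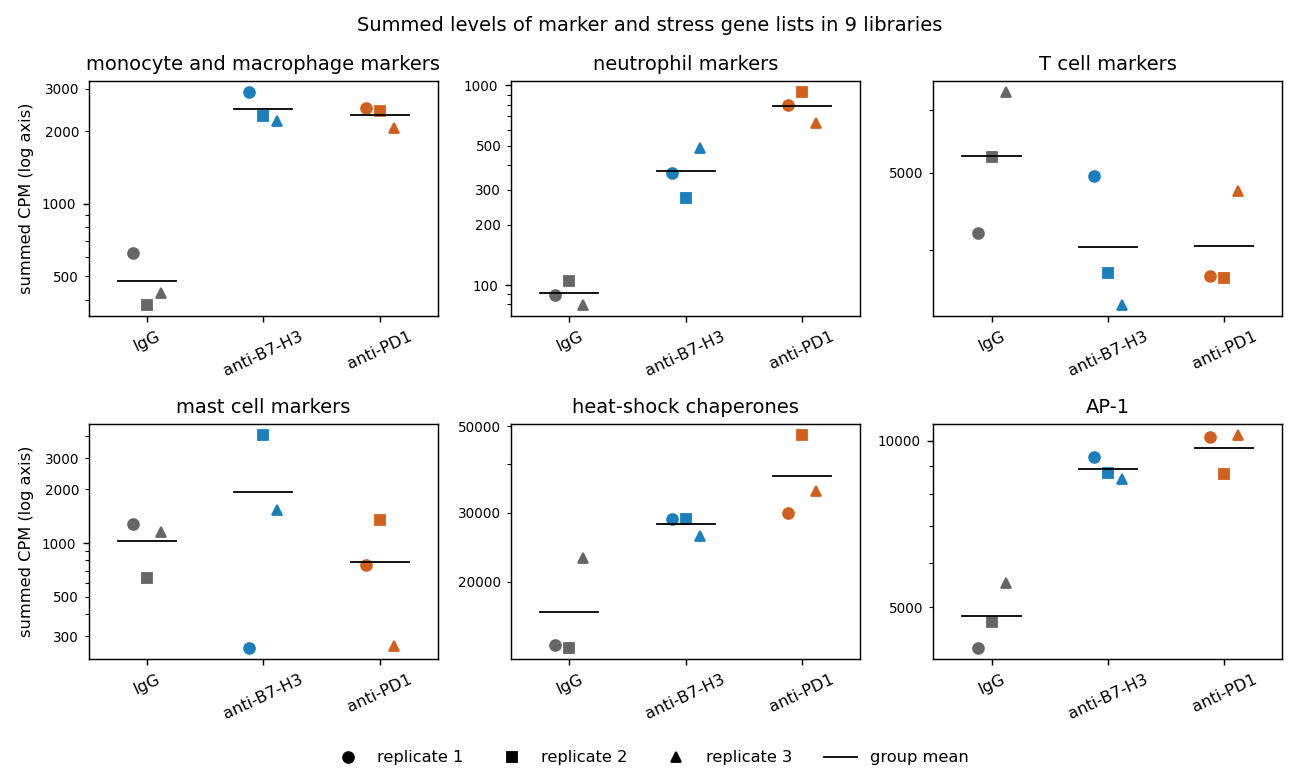
Summed TMM-scaled CPM (vertical log axes) of 6 gene lists in each of the 9 libraries, with a symbol per replicate number and a line at the group mean. All 6 treated libraries lie above the 3 controls for the monocyte and macrophage, neutrophil, heat-shock and AP-1 lists, and the groups overlap for the T cell and mast cell lists.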

How the data were processed

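Bulk RNA-seq libraries of CD45+ cells were made, per the labels' protocols, with the SMART-Seq v4 kit, ribosomal RNA depletion and Nextera XT. These kits do not mark strand, and no annotated gene overlaps the 8 genes. The submitters' processing notes name GRCm38 and FastQC 0.11.8, and the quantifier is not given in the sources used here. For each of 58083 transcripts, every deposited file holds an estimated count and a TPM value of 1 library, per the file headers. The authors' deposited TPM values are scaled to coding length, since 87.3% of the lengths are multiples of 3, and the deposited estimated counts are not normalised.

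Genes were assigned by GENCODE M21 (57409 matched, 674 unmatched and left out, 0.236% to 0.547% of counts). Estimated counts were summed per gene and rounded. All 9 libraries entered 1 fit in edgeR 4.0.16 (R 4.3.3) with TMM factors, filterByExpr, a mean per group, robust dispersions and glmQLFTest, adjusted by Benjamini-Hochberg over 13178 genes at 0.05. Intervals are 95%. Counts come from PCR without molecular identifiers, so depth limits cover counting error only. DESeq2 1.42.0, limma-voom with quality weights (limma 3.58.1), other scalings and filters and each library left out were alternatives.

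The 8 genes, the 17 lists and the tests were chosen with earlier results of these data known. Named beside the 8 were up to 3 genes per list with the smallest p, the 2 genes most like each early factor, and defining cell markers. Nab2 was named after its values were seen. Promoter windows are from RefSeq. The fit was tested on simulated counts, for anti-B7-H3 beside IgG only and with 50 altered genes at each size of change. It recovered 6% of 2-fold, 54% of 4-fold and 100% of 8-fold and 16-fold changes, with 3 false calls. Most simulated 2-fold changes were thus missed, so a gene that was not called may still differ between groups.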

Additional observations from a re-analysis of the deposited data

How the results depend on the processing

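With anti-B7-H3, the count of 2 early factor genes past the test was also 2 with DESeq2, RLE or upper-quartile factors, no filter, a stricter filter of 5 CPM in 3 libraries, and the replicate number as a block. It was 1 with limma-voom and quality weights, with only the 2 groups compared, without both libraries that stood apart, and with limma on log2(TPM + 0.1), a setting chosen after seeing the data, as was the one without scaling factors (2). It ranged from 1 to 2 with each library left out. Nr4a1 was the gene lost with only the 2 groups compared (edgeR adjusted p = 0.0643) and on TPM (limma adjusted p = 0.0779). With anti-PD1, the count of 4 was 7 with DESeq2, 5 with no filter, 3 with limma-voom and quality weights, and 2 with only the 2 groups compared, with the replicate block, without both libraries that stood apart, on TPM and without scaling factors. It ranged from 2 to 4 with each library left out. Between the antibodies it was 0 in all of these settings.

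The anti-PD1 calls of Nr4a1 and Klf4 were kept in all 18 planned settings and in both added ones. The Egr3 difference with anti-B7-H3 of 0.16 turned to -0.31 without IgG replicate 3 (edgeR adjusted p = 0.943) and reached 1.15 without IgG replicate 1, and the stricter filter gave it no value. The cause of these changes was not tested. Nothing says that equal replicate numbers mark paired samples. Deviations of libraries with equal numbers had correlations from -0.12 to 0.156. Pairs with unequal numbers were not set beside them, so pairing is neither shown nor excluded. With the block, the anti-PD1 calls of Egr2 and Klf6 were lost (edgeR adjusted p = 0.0802 and 0.122). Over all genes, 112 calls with anti-B7-H3 were 393 with DESeq2, 64 with the block and 44 with only the 2 groups, and 59 to 144 with a library left out. The 229 calls with anti-PD1 were 659, 127 and 136, and 113 to 262. Without the filter, the median of all genes with anti-B7-H3 moved to 0.16, and without scaling factors that with anti-PD1 to -0.14. Nr4a3 and Egr3 rest on few counts, with 1 and 7 in their lowest libraries, and vary widely between libraries of 1 group.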
